A study of Mus musculus with 23 samples.

Results

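The 10 genes of the Wnt pathway described here were measured in differentiating C2C12 cells, a mouse myoblast line whose cells stop dividing in low serum and fuse to form myotubes. They are the ligands Wnt5a and Wnt4, the secreted antagonists Sfrp1, Sfrp2, Dkk2 and Dkk3, the intracellular inhibitors Nkd1 and Nkd2, and the target genes Axin2 and Lef1. They were taken by symbol as 10 of the 32793 rows of the gene tables. The choice was made knowing that Wnt5a and Nkd2 were near 0 and Sfrp1 was raised in the libraries labelled KO. Differences between the 2 genotype labels are therefore given for these genes as a description, without a test. Changes over time within one label are not part of that stated reason and were tested. Earlier results of these data were known when the genes were chosen.

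RNA sequencing of poly(A)-selected RNA covered 23 libraries in 8 groups. Control cells (WT) and Runx1KO cells were each taken in medium with 20% fetal bovine serum for growth, called day 0, and on days 1, 3 and 6 in differentiation medium with 2% horse serum. Each group had 3 libraries, except WT on day 0 with 2. The sample titles give the last time as day 6 and the series text as day 5, and the titles were followed. How the knockout was made, and whether each genotype is 1 clone or a pool, is not given in the sources used here, so a difference between the labels cannot be told apart from a difference between lines. Nothing in the labels states that replicates came from separate cultures, and the p-values then measure only the spread between these libraries, which may be technical.

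In the Wnt pathway, secreted ligands bind Frizzled receptors and the co-receptors Lrp5 and Lrp6 and keep β-catenin from being degraded. β-catenin then enters the nucleus and activates genes together with TCF/LEF factors. Branches that do not use β-catenin act on cell polarity and calcium. Sfrp proteins bind the ligands, Dkk1, Dkk2 and Dkk4 block the co-receptors, and Nkd proteins act on Dishevelled inside the cell. Wnt signals are known in muscle for roles in the specification of myogenic cells, in myoblast fusion and in regeneration. Runx1, the gene named in the knockout, encodes a transcription factor of the RUNX family.

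Runx1 mRNA went against the label. It ranged from 83.9 to 165 CPM (counts scaled to library size by TMM) over the WT libraries and from 117 to 320 CPM over the libraries labelled KO. On each day the mean was higher under the KO label, at 120 against 84.0 CPM on day 0 and 311 against 153 CPM on day 6. This level of mRNA does not check the protein, and the text keeps to "libraries labelled KO". Totals ran from 22197606 to 23684077 estimated counts per library. Library 2 of the day 1 group labelled KO stood apart from its 2 replicates, with a chi-square per degree of freedom of 64.5 to 64.9 over genes, against 3.19 to 29.0 for the other replicate pairs. The myoblast markers Myod1, Des, Cdh15, Pax7, Myf5 and Itga7 were present in every library, with at least 269 counts each. Of the markers of other cells, 2 of 4 for leukocytes (Ptprc and Cd3e), 1 of 4 for endothelium (Kdr), 1 of 3 for epithelium (Krt5), 1 of 5 for osteoblasts (Alpl) and 3 of 5 for fat cells (Adipoq, Cfd and Plin1) had at most 3 counts in every library. The others did not stay that low: Cd68 ranged from 13 to 265 counts, Pparg from 68 to 452, and Dmp1, Itgam, Cdh1 and Pecam1 reached 64, 23, 19 and 17. The leukocyte sum, mostly Cd68, was 2.97 to 5.07 CPM in WT and 9.97 to 11.98 CPM under the KO label on day 6, and the osteoblast sum was 0.693 to 1.18 CPM in WT and 2.44 to 2.87 CPM under the KO label on day 3. The fat-cell sum, mostly Pparg, was lower under the KO label without overlap on all 4 days (11.5 to 13.1 against 19.2 to 21.3 CPM on day 0, 4.57 to 5.76 against 8.34 to 9.54 CPM on day 6). The endothelial sum was lower on day 0 (0.0927 to 0.272 against 0.396 to 0.463 CPM), and the epithelial sum was higher on day 6 (0.353 to 1.18 against at most 0.0860 CPM). The myoblast sum was higher under the KO label on days 0, 3 and 6, at 2662 to 2770 against 1918 to 1979 CPM on day 0 and 4215 to 4752 against 2617 to 3113 CPM on day 6. The part of these markers in the results was not tested.

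The 3 stretches of DNA shown here each lie just before a RefSeq start of a member. They belong to one member that was near 0 under the KO label, one that was higher there and one target gene that rose with time under both labels. They are the 250 bases upstream of that start, 5′ to 3′ on the strand of the gene (GRCm38.p6). A gene can have several starts, so a window can lie inside the gene. The Axin2 window lies inside its gene, whose first base is chr11:108917828. The Dkk2 window runs past the first base of its gene, chr3:132085266. Capitals mark a match to a RUNX motif (TGTGGT or TGCGGT) or a TCF/LEF motif (CTTTGAA or CTTTGAT or CTTTGTA or CTTTGTT), searched on both strands. No 2 of these motifs share bases in the matches found.
Nkd2 (chr13:73847632-73847881, minus strand): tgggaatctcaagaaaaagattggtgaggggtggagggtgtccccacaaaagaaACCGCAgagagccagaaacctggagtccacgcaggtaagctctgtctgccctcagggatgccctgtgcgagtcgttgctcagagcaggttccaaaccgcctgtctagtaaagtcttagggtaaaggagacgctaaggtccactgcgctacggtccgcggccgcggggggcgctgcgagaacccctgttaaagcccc
Dkk2 (chr3:132085042-132085291, plus strand): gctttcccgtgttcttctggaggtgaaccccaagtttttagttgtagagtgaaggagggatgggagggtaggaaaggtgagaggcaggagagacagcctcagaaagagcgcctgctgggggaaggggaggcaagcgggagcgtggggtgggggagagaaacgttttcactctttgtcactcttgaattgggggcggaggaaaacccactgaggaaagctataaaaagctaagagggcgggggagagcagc
Axin2 (chr11:108920099-108920348, plus strand): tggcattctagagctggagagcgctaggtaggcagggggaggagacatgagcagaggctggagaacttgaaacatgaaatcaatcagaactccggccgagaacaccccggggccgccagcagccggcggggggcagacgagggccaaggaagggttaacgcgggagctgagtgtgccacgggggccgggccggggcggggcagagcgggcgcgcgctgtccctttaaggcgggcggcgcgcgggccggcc
The only match in these 3 windows was TGCGGT in Nkd2, on the opposite strand, 196 to 191 bases before the start. Upstream windows were found for 7 of the 10 members, and Lef1 has 4 starts in the table, giving 10 windows. The other match was CTTTGTA at 1 of the 4 starts of Lef1, also on the opposite strand, 147 to 141 bases before it. Of 32851 windows of this length in the table, 18.6% held a RUNX match and 14.8% a TCF/LEF match. A match is a description of letters and not a binding site. Wnt5a, Sfrp1 and Dkk3 had no entry. Among the 10 genes, Sfrp2, Dkk2 and Lef1 lie on chromosome 3, and Sfrp1 (chr8:23411383-23449632) and Nkd1 (chr8:88521342-88594887) on chromosome 8.

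Of the 10 members, 9 passed the filter on low counts, as did 14187 genes in all. Nkd1 did not pass, with 0 counts in 20 of 23 libraries and at most 3 in the others. On days 0, 1, 3 and 6 the CPM of 8, 8, 7 and 8 members did not overlap between the labels. Over all genes that passed the filter, 51.6%, 47.1%, 60.4% and 51.7% did not overlap on those days, and nothing is read from the members' counts, since these differences chose them. Leaving out the day 1 library that stood apart made the day 1 count 9, through Axin2. By relative abundance per transcript length (TPM), Lef1 led the members in WT growth medium at 4.86 and Sfrp1 led in growth medium labelled KO at 11.8. On day 6 Sfrp1 stood at 20.3 TPM in the libraries labelled KO, followed without overlap by Lef1 at 8.65 and Axin2 at 5.46. In WT on day 6 Lef1 (9.43 TPM) and Dkk3 (6.78 TPM) overlapped at the top, and Axin2 and Sfrp2 (both 3.93 TPM) overlapped each other below them.

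**Figure D1:**
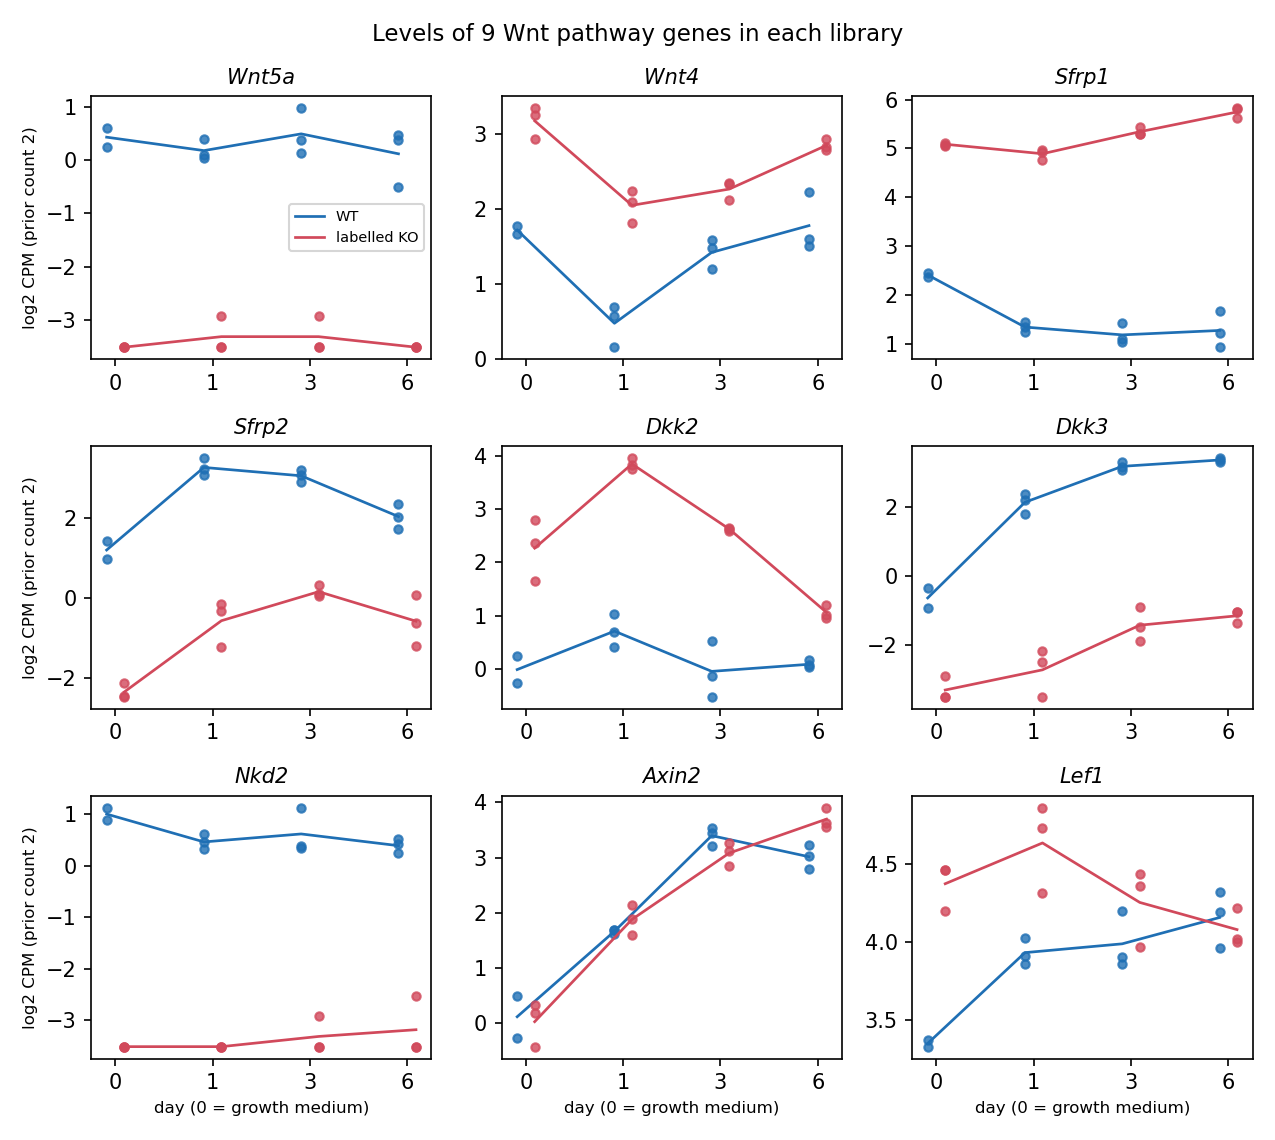
Level of 9 members in each library (points, log2 CPM with a prior count of 2) and group means (lines) by day, in WT (blue) and in libraries labelled KO (red). Each panel has its own vertical range. Wnt5a, Nkd2, Sfrp2 and Dkk3 lie lower and Sfrp1, Dkk2 and Wnt4 higher under the KO label on all 4 days, while Axin2 overlaps on days 0, 1 and 3 and Lef1 on days 3 and 6.

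Wnt5a and Wnt4, the ligands, moved in opposite directions between the labels. Wnt5a, a ligand best known for signalling without β-catenin, had 25 and 31 counts in the WT growth-medium libraries. WT libraries then had 29, 23 and 22 counts on day 1, 23, 28 and 43 on day 3, and 30, 14 and 29 on day 6. That is a low level throughout, between 0.621 and 1.87 CPM. Under the KO label Wnt5a had 0 counts in 10 of 12 libraries and 1 count in library 3 of day 1 and library 2 of day 3. The groups did not overlap on any day. Against a floor of 3 counts per library, which is 0.126 to 0.140 CPM, its decrease was at least 9.16-fold on day 0 and at least 7.97-fold on day 6. With 1 count in the group, the ratio was 71.8 on day 1 (95% counting interval 12.5 to 2872) and 90.8 on day 3 (15.9 to 3625). These intervals cover counting error only, and so few counts do not fix the size of the decrease. Within WT no change with time passed the test, with log2 fold changes (log2FC) of -0.27, 0.10 and -0.28 on days 1, 3 and 6 against day 0 and adjusted p of 0.609, 0.848 and 0.577 by edgeR's quasi-likelihood test. The gene (chr14:28504543-28527448) shares exon bases with Gm2670 on the opposite strand, and without a stated use of strand the reads of the 2 cannot be told apart.

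Wnt4, a ligand studied in kidney and muscle development, was 2.81-, 3.10-, 1.82- and 2.08-fold higher under the KO label on days 0, 1, 3 and 6. Growth-medium libraries had 3.08 and 3.33 CPM in WT and 7.58, 9.43 and 10.1 CPM under the KO label. On day 1 they had 1.53, 1.40 and 1.03 CPM in WT and 4.65, 3.43 and 4.16 CPM under the KO label. The libraries of the labels did not overlap. Both labels fell on day 1, by 1.28 in log2FC in WT (SE 0.24 and adjusted p = 7.43e-05, edgeR) and by 1.14 under the KO label (SE 0.18 and adjusted p = 9.28e-06). On day 3 WT had 2.70, 2.90 and 2.21 CPM and no longer differed from day 0 beyond the test (log2FC -0.30, adjusted p = 0.253). The libraries labelled KO, at 4.93, 5.00 and 4.26 CPM, were still lower than on day 0 (log2FC -0.93, adjusted p = 8.27e-05). On day 6 the values were 2.75, 4.61 and 2.94 CPM in WT and 6.79, 7.01 and 7.58 CPM under the KO label, and neither label passed the test against day 0. The adjusted p under the KO label was 0.0783, but 0.0327 without day 0 library 1 of that label, 0.0429 without day 6 library 2 of WT and 0.0447 with only the groups compared. From day 1 to day 3 Wnt4 rose in WT (log2FC 0.98, adjusted p = 0.00241), and from day 3 to day 6 it rose under the KO label (0.59, adjusted p = 0.00936).

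The secreted Frizzled-related proteins Sfrp1 and Sfrp2, which bind Wnt ligands outside the cell, also went opposite ways between the labels. Sfrp1 libraries in growth medium had 5.37 and 5.09 CPM in WT and 33.8, 34.7 and 33.3 CPM under the KO label. On day 1 WT had 2.63, 2.29 and 2.43 CPM and the libraries labelled KO 31.3, 27.3 and 30.4 CPM. The highest WT library of any day, at 5.37 CPM, lay below the lowest library labelled KO, at 27.3 CPM. On day 3 the values were 2.05, 1.95 and 2.60 CPM against 39.0, 43.2 and 39.4 CPM, and on day 6 they were 2.23, 1.82 and 3.10 CPM against 55.8, 56.4 and 49.0 CPM. The ratio of means was 6.48 on day 0, 12.1 on day 1, 18.4 on day 3 and 22.5 on day 6. In WT Sfrp1 fell on day 1 (log2FC -1.09, SE 0.16 and adjusted p = 4.24e-06) and was still lower on day 3 (-1.25, adjusted p = 7.62e-07) and day 6 (-1.13, adjusted p = 2.03e-06). Under the KO label day 1 did not pass the test (log2FC -0.19, adjusted p = 0.116), and by day 6 Sfrp1 had risen 1.58-fold (0.66, SE 0.10 and adjusted p = 3.07e-06). The day 3 rise of 0.26 (adjusted p = 0.0321) was not stable. Its adjusted p was 0.0962, 0.0548 and 0.0843 without day 0 library 1, 2 or 3 of the KO label, 0.0539 without day 0 library 1 of WT and 0.129 without day 3 library 2 of the KO label. With RLE scaling it was 0.0547, with no filter 0.134 and on log2(TPM + 0.1) values 0.103.

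Sfrp2 was lower in the libraries labelled KO, by 15.6-, 8.08- and 6.58-fold on days 1, 3 and 6. In growth medium WT had 2.60 and 1.90 CPM, and the libraries labelled KO had 2, 3 and 2 counts, equal to 0.0907, 0.140 and 0.0927 CPM. On day 1 WT had 11.3, 8.44 and 9.35 CPM against 0.812, 0.335 and 0.716 CPM, and on day 3 it had 8.40, 7.45 and 9.20 CPM against 0.951, 1.16 and 0.987 CPM. On day 6 WT had 3.22, 5.10 and 4.03 CPM against 0.971, 0.559 and 0.348 CPM. No day showed an overlap of the labels. The day 0 libraries labelled KO are all at or under the floor of 3 counts, so no fold is given for that day. Sfrp2 rose after growth medium under both labels. In WT the log2FC was 2.11 on day 1 (SE 0.26 and adjusted p = 3.87e-07), 1.89 on day 3 (adjusted p = 1.75e-06) and 0.87 on day 6 (adjusted p = 0.0069). In the libraries labelled KO all 3 days passed as well (adjusted p of 0.000389, 4.39e-06 and 0.000196), also on log2(TPM + 1) values with limma (0.51, 0.80 and 0.50, adjusted p of 0.00764, 0.000136 and 0.00563). The size of these rises is not fixed by so few counts on day 0. WT fell again from day 3 to day 6 (log2FC -1.02, adjusted p = 0.00256). The WT day 6 rise was lost without WT day 0 library 2 (0.66, adjusted p = 0.106). The day 3 to day 6 value under the KO label was -0.72 (adjusted p = 0.087) and passed without day 6 library 1 of that label (-1.16, adjusted p = 0.0153). Gm26771 shares exon bases with Sfrp2 on the opposite strand.

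Dkk2, a secreted antagonist that binds the Lrp5 and Lrp6 co-receptors, was higher under the KO label and peaked on day 1. In growth medium the libraries had 1.10 and 0.741 CPM in WT and 6.81, 5.04 and 3.06 CPM under the KO label. On day 1 they had 1.53, 1.95 and 1.24 CPM in WT and 14.1, 15.4 and 13.4 CPM under the KO label. The day 1 libraries labelled KO were the highest of all groups, and the labels did not overlap on any day. On day 3 the values were 0.827, 1.34 and 0.607 CPM against 5.93, 6.12 and 6.19 CPM, and on day 6 they were 1.03, 0.931 and 0.964 CPM against 1.94, 1.85 and 2.22 CPM. The ratio of means was 5.40, 9.09, 6.57 and 2.05 on days 0, 1, 3 and 6. Under the KO label the day 1 rise was 1.52 in log2FC (SE 0.21 and adjusted p = 1.69e-06), and the steps from day 1 to day 3 (-1.23, adjusted p = 7.26e-05) and from day 3 to day 6 (-1.60, adjusted p = 7.44e-06) were decreases. By day 6 it was below its own growth-medium level (-1.31, SE 0.24 and adjusted p = 3.43e-05). The day 3 value of 0.29 (adjusted p = 0.256) passed without day 0 library 1 of the KO label (0.56, adjusted p = 0.0351). In WT no change passed, and day 1 was nearest, at 0.77 (SE 0.34 and adjusted p = 0.0594). That value was borderline: leaving out KO day 0 library 1 or 3, KO day 1 library 2, KO day 6 library 1, WT day 0 library 1, WT day 1 library 3, WT day 3 library 2, or WT day 6 library 1 or 3 gave adjusted p between 0.0255 and 0.0492. It also passed with RLE scaling (0.0495), with library size only (0.0447), on log2(TPM + 0.1) values (0.0298) and with the replicate block (0.0342). The WT step from day 1 to day 3 (-0.76, adjusted p = 0.0747) passed without KO day 0 library 1 (adjusted p = 0.0435), KO day 0 library 3 (0.0321) or WT day 3 library 2 (0.0217).

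Dkk3, a divergent member of the Dkk family, rose with differentiation in WT and had at most 10 counts in any library labelled KO. WT had 0.440 and 0.695 CPM in growth medium, 4.55, 5.13 and 3.42 CPM on day 1, 8.80, 8.36 and 9.76 CPM on day 3, and 10.2, 9.80 and 10.6 CPM on day 6. The libraries labelled KO had 1, 0 and 0 counts, then 2, 0 and 3, then 4, 10 and 6, then 9, 7 and 9. The labels did not overlap on any day. The ratio of WT to KO-labelled means was 36.7 on day 0 (95% counting interval 6.004 to 1506, from 1 count), 30.0 on day 3 and 28.03 on day 6. No fold is given for day 1, with at most 3 counts per library labelled KO. WT rose by 2.94 in log2FC on day 1 (SE 0.31 and adjusted p = 3.23e-08), 3.98 on day 3 (adjusted p = 1.56e-10) and 4.16 on day 6 (adjusted p = 4.12e-11). Under the KO label edgeR called days 3 and 6 higher than day 0 (fitted log2FC of 3.87 and 4.14, near those of WT, adjusted p of 0.000303 and 5.62e-05). These are set against 1 count in 3 libraries, so the size of the change is not determined, and a difference in the rise between the labels was not tested. On log2(TPM + 1) values with limma the differences were 0.19 and 0.23 and did not pass, with adjusted p of 0.621 and 0.507. The step from day 1 to day 3 under the KO label (1.95, adjusted p = 0.018) was lost without day 1 library 2, which stood apart (1.35, adjusted p = 0.102), and without day 3 library 2 (1.55, adjusted p = 0.114), and on log2(TPM + 1) or log2(TPM + 0.1) values (adjusted p of 0.778 and 0.15). TPM of Dkk3 varied more between WT replicates than the counts did, with 4.85, 8.20 and 13.3 TPM on day 3.

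Nkd1 and Nkd2 encode Naked cuticle proteins, which bind Dishevelled and dampen the signal inside the cell. Nkd1 (at most 3 counts) was at or near 0 under both labels, so no fold is given. Nkd2 had 47 and 38 counts in WT growth medium, 30, 34 and 27 on day 1, 28, 48 and 27 on day 3, and 31, 28 and 26 on day 6, equal to 1.09 to 2.08 CPM. In the libraries labelled KO it had 0 counts in 10 of 12 libraries, 1 count in library 2 of day 3 and 2 counts in library 2 of day 6. The groups were far apart on every day. The decrease of Nkd2 was at least 13.8-fold on day 0 and at least 9.79-fold on day 1. The ratio was 99.5 on day 3 (95% counting interval 17.5 to 3969) and 42.0 on day 6 (11.3 to 353). In WT no change since growth medium passed the test, with log2FC of -0.57, -0.36 and -0.65 and adjusted p of 0.212, 0.423 and 0.141. Nkd2 is the member whose upstream window holds the RUNX match printed above. Of all windows of this length 18.6% held such a match, and its part in the Nkd2 values was not tested.

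Axin2, a scaffold of the β-catenin destruction complex and a widely used target gene of the pathway, rose with differentiation under both labels. WT had 1.32 and 0.741 CPM in growth medium, 2.97, 3.14 and 3.12 CPM on day 1, 10.8, 11.5 and 9.20 CPM on day 3, and 6.83, 9.22 and 8.09 CPM on day 6. The libraries labelled KO had 1.04, 0.654 and 1.16 CPM, then 4.33, 2.93 and 3.63 CPM, then 8.60, 7.15 and 9.56 CPM, then 12.3, 11.7 and 14.9 CPM. The labels overlapped on days 0, 1 and 3, and on day 6 every library labelled KO was above every WT library, with a ratio of means of 1.61. The log2FC since growth medium in WT was 1.57 on day 1 (SE 0.27 and adjusted p = 2.72e-05), 3.33 on day 3 (SE 0.25 and adjusted p = 9.61e-11) and 2.95 on day 6 (SE 0.25 and adjusted p = 5.04e-10). The libraries labelled KO gave 1.92 (SE 0.23 and adjusted p = 3.12e-07), 3.14 (SE 0.22 and adjusted p = 1.96e-11) and 3.76 (SE 0.21 and adjusted p = 2.36e-13). From day 3 to day 6 the libraries labelled KO rose further (0.62, adjusted p = 0.0038), and the WT value of -0.38 did not pass (adjusted p = 0.161). On day 6 the summed CPM of 6 myotube markers was also higher under the KO label, at 8575 to 10678 against 1534 to 1780 in WT. It was higher there on day 1 (109 to 156 against 33.4 to 65.0) and day 3 (3153 to 5803 against 1860 to 2043) too, when Axin2 overlapped between the labels. Their part in the Axin2 values was not tested. Gm11670 shares exon bases with Axin2 on the opposite strand.

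Lef1, a DNA-binding partner of β-catenin and itself a target gene, was higher under the KO label on days 0 and 1 and overlapped between the labels on days 3 and 6. Growth-medium libraries had 10.2 and 9.96 CPM in WT and 18.3, 21.9 and 21.9 CPM under the KO label. On day 1 they had 14.4, 14.97 and 16.2 CPM in WT and 26.5, 19.8 and 29.0 CPM under the KO label. The ratio of means was 2.05 on day 0 and 1.65 on day 1, without overlap. On day 3 WT had 18.2, 14.9 and 14.4 CPM and the libraries labelled KO 20.4, 21.5 and 15.6 CPM, and on day 6 WT had 15.5, 18.2 and 19.9 CPM and the libraries labelled KO 15.9, 16.1 and 18.5 CPM. The labels overlapped on both of these days. WT rose by 0.59 in log2FC on day 1 (SE 0.16 and adjusted p = 0.00423), 0.65 on day 3 (adjusted p = 0.00171) and 0.82 on day 6 (adjusted p = 0.000141). Under the KO label no change since growth medium passed, at 0.28, -0.11 and -0.30 with adjusted p of 0.0961, 0.509 and 0.0606. The day 1 value passed without day 1 library 2 of that label, which stood apart (0.43, adjusted p = 0.00745), with library size only (0.0269) and on log2(TPM + 1) or log2(TPM + 0.1) values (0.036 and 0.0378). The day 6 value passed without that library (adjusted p = 0.0301) and without KO day 0 library 1 (0.0285), KO day 3 library 3 (0.0447) or KO day 6 library 3 (0.0431), as well as with no filter (0.032) and with only the groups compared (0.0236). The decrease from day 1 to day 3 under the KO label (-0.39, adjusted p = 0.039) was lost without KO day 1 library 1 (adjusted p = 0.0944), KO day 1 library 3 (0.178) or KO day 3 library 3 (0.213), with only the groups compared (0.161) and with the replicate number as a block (-0.38, adjusted p = 0.0539). Gm43352 shares exon bases with Lef1 on the opposite strand.

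Counted together, 6, 5 and 5 of the 9 members tested changed in WT on days 1, 3 and 6 against growth medium, where 54.7%, 58.2% and 63.6% of all genes tested were called. In the libraries labelled KO 4, 5 and 5 were called, against 52.3%, 57.6% and 70.0%. Wnt5a and Nkd2 passed the filter through WT and, with at most 2 counts per library labelled KO, could hardly be called there, and Dkk3 had at most 10. Nothing is read from these shares about the members as a set. Sfrp2, Dkk3, Axin2 and Lef1 were the 4 that rose in WT on all 3 days, Sfrp1 fell on all 3, and Wnt4 fell on day 1. Under the KO label Sfrp2 and Axin2 rose on all 3 days, Sfrp1 on days 3 and 6, and Dkk2 on day 1, while Wnt4 fell on days 1 and 3 and Dkk2 on day 6. The calls of days 3 and 6 under the KO label include Dkk3, from the low counts given above. From day 1 to day 3 the test called 3 members in WT (background 19.7%) and 5 under the KO label (26.7%). From day 3 to day 6 it called 1 in WT (9.79%) and 4 under the KO label (41.3%). Without the day 1 library that stood apart, 5 members changed on day 1 under the KO label and 4 from day 1 to day 3. The comparisons with day 0 share their growth-medium libraries, so their directions are not independent.

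**Figure D2:**
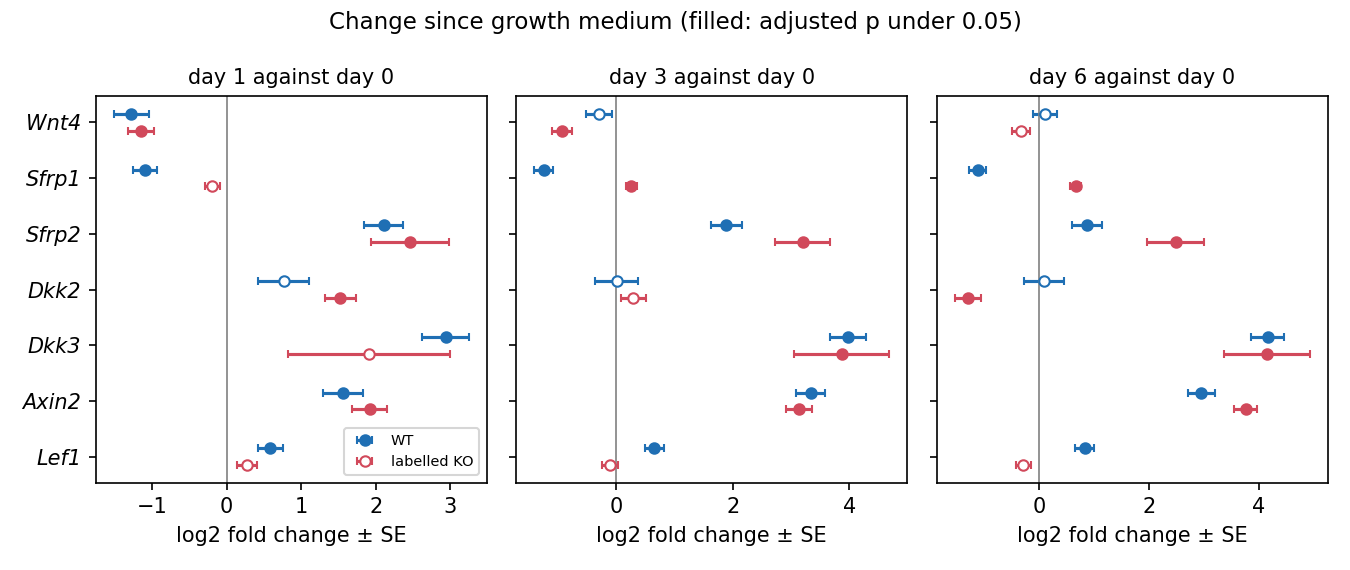
Change of 7 members since growth medium (log2 fold change, horizontal, with its standard error) on days 1, 3 and 6, in WT (blue) and in libraries labelled KO (red); filled points have an adjusted p under 0.05 by edgeR. Axin2 and Sfrp2 lie right of 0 under both labels on all 3 days, and Sfrp1 lies left of 0 in WT and right of 0 under the KO label on days 3 and 6; Wnt5a and Nkd2 are left out, being at or near 0 under the KO label.

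The summed level of 6 markers of fibroblasts and mesenchymal cells was lower under the KO label, as Sfrp2 and Dkk3 were. The summed CPM of Pdgfra, Dcn, Lum, Col1a1, Col3a1 and Fap was 1296 to 1478 in WT and 476 to 668 under the KO label on day 0, and 12200 to 15253 and 4484 to 4664 on day 6. Col1a1 and Col3a1, the collagens among them, reached 7581 and 7617 CPM in single libraries and make up most of the sum, which therefore does not show that the markers moved as a group. In WT the median sum went from 11495 CPM on day 3 to 13761 CPM on day 6, while Sfrp2 fell. Lum and Fap did not exceed 8 and 5 counts in any library. All 6 had more than 3 counts in at least 1 library. In bulk RNA, fewer cells of a type and less RNA per cell cannot be told apart, and the part of such cells in the levels of Sfrp2 and Dkk3 was not tested.

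Around these members, 90 other Wnt pathway genes were listed by role and 69 of them passed the filter. Between the labels 32 of the 69 were called on day 0, when 17.5% of all genes tested were called. On days 1, 3 and 6 the test called 36, 31 and 38, with 42.2%, 43.2% and 42.9% of all genes called. More were lower than higher under the KO label, with 20 lower and 12 higher on day 0, 21 and 15 on day 1, 23 and 8 on day 3, and 24 and 14 on day 6. Of all genes called, 57.9%, 45.6%, 44.5% and 48.6% were lower on those days. The split moved with the scaling. With library size only, 70.5%, 52.8%, 52.7% and 58.0% of all genes called were lower on those days. The listed genes then had 20 lower and 10 higher on day 0 and 22 and 13 on day 1. They had 27 and 7 on day 3 and 25 and 9 on day 6. With RLE scaling the shares were 55.0%, 49.0%, 50.3% and 48.1%. The list then had 18 lower and 12 higher, 22 and 14, 27 and 7, and 24 and 16. Under each scaling more listed genes were lower than higher on every day. Nothing particular to the list is read from its split. The median log2FC of the 69 stayed near 0, at -0.03, 0.03, -0.11 and -0.05, beside 0.00, 0.03, 0.04 and 0.00 over all genes tested. The day 0 count fell to 19 without WT day 0 library 1. Porcn, which acylates Wnt ligands for secretion, was lower on all 4 days, and Wls, which carries them, was called lower on each day as well, with less stable calls on days 0 and 1. Of the 10 cytoplasmic genes tested, 1 was called on day 0 and 3 or 4 on each later day.

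**Figure D3:**
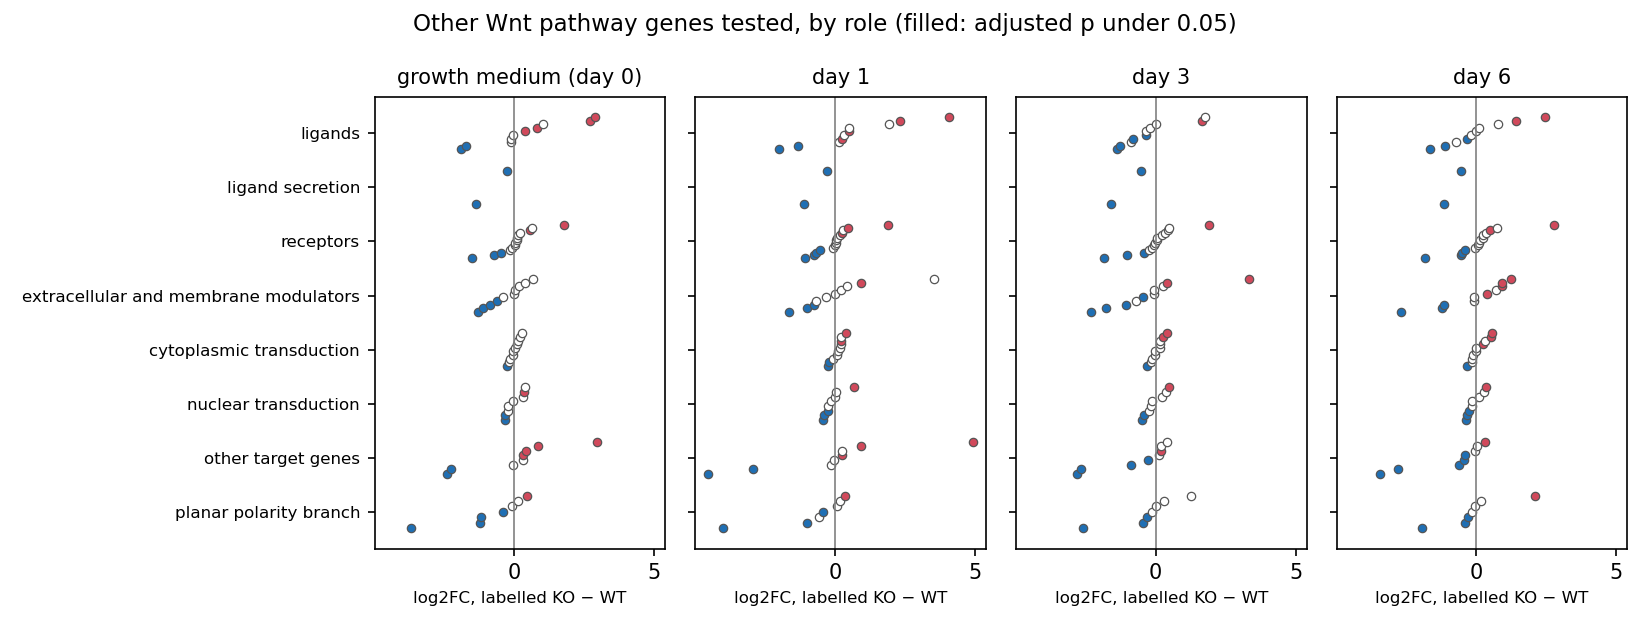
Difference between libraries labelled KO and WT (log2FC, horizontal) for the 69 other Wnt pathway genes tested, one point per gene, grouped by role and shown by day; red points are higher and blue points lower with an adjusted p under 0.05, and white points were not called. Both ligand secretion genes are blue on all 4 days.

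Wnt7b, Wnt10a, Porcn, Rspo1, Prickle1, Fzd8 and Wisp2 were the listed genes that differed most between the labels among those called, with at least 5 CPM in the higher group and a log2FC of 1 or more. Wnt7b, a ligand, had 1.41 and 1.48 CPM in WT growth medium and 10.8, 11.4 and 10.1 CPM under the KO label. It was higher under the KO label on all 4 days, with log2FC of 2.89, 2.33, 1.64 and 1.42 (adjusted p of 1.84e-09, 2.99e-12, 1.03e-09 and 6.17e-09, edgeR). On day 1 the libraries labelled KO reached 104, 69.8 and 113 CPM against 20.3, 18.1 and 18.8 CPM in WT. Wnt10a, another ligand, was 3.73-fold lower under the KO label on day 0 (23.4 and 23.8 CPM in WT, 5.67, 6.40 and 6.95 CPM under the KO label, adjusted p = 2.35e-08) and 2.46-fold lower on day 1 (adjusted p = 1.65e-07), and passed on days 3 and 6 too (log2FC -1.37 and -1.13). Porcn, the acyltransferase that ligands need for secretion, was lower on day 0 (7.87 ± 1.36 CPM, SD, n = 3, against 20.2 ± 0.0638 CPM, SD, n = 2, adjusted p = 2.87e-07, edgeR) and on day 3 (28.5 ± 2.91 against 85.2 ± 3.96 CPM, SD, n = 3 each, adjusted p = 2.51e-10, edgeR). Wls had log2FC of -0.27, -0.28, -0.53 and -0.54. Its day 0 call (adjusted p = 0.0414) was lost under 19 of 31 alternatives, with an adjusted p of 0.39 without WT day 0 library 1, and its day 1 call without KO day 1 library 1 (0.0565) and with only the groups compared (0.0874). It lies outside the rule for named genes and is named because its group holds 2 genes.

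Rspo1, a secreted protein that strengthens Wnt signalling through Lgr receptors, was lower under the KO label by log2FC of -1.12, -1.63, -1.78 and -2.67 on days 0, 1, 3 and 6 (adjusted p of 1.06e-05, 1.11e-08, 5.24e-09 and 7.74e-12). Its day 6 libraries had 11.4, 13.7 and 12.3 CPM in WT and 1.99, 1.68 and 2.22 CPM under the KO label. Fzd8, a Frizzled receptor, was 3.52-fold lower on day 6 (adjusted p = 9.3e-07) and also passed on days 0, 1 and 3 (log2FC -1.51, -1.08 and -1.85). Prickle1, of the planar polarity branch, was 2.25-fold lower on day 0 (adjusted p = 1.24e-06), but its libraries overlapped on day 6 (log2FC -0.03, adjusted p = 0.862). Wisp2 (now Ccn5), a secreted matricellular protein, was lower on all 4 days, with log2FC of -2.38, -4.51, -2.82 and -2.81 (adjusted p of 0.000347, 2.17e-12, 2.45e-12 and 1.44e-12). On day 3 it had 62.6, 68.5 and 52.5 CPM in WT and 9.91, 9.61 and 6.51 CPM under the KO label. Apart from Prickle1 on day 6, the labels did not overlap in these comparisons.

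**Figure D4:**
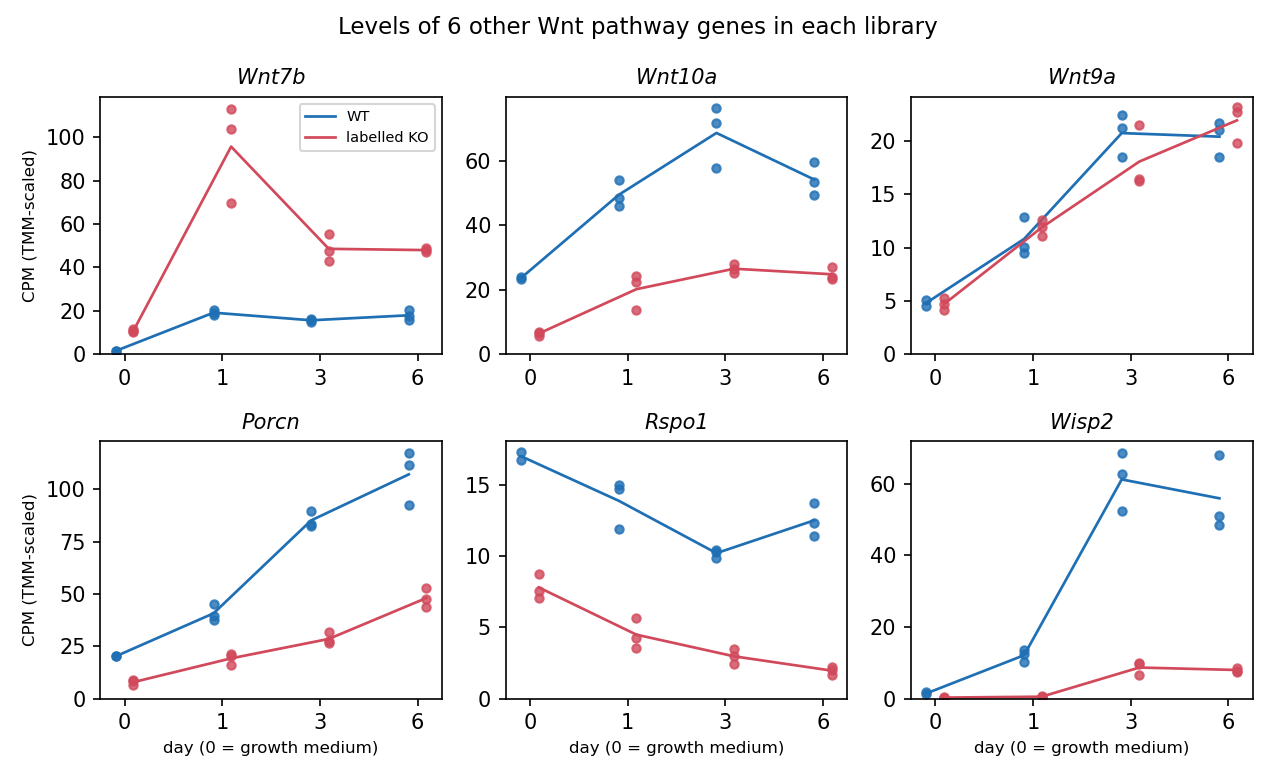
Level of 6 other Wnt pathway genes in each library (points, CPM scaled by TMM, linear axis from 0) and group means (lines) by day, in WT (blue) and in libraries labelled KO (red). Wnt7b lies higher and Wnt10a, Porcn, Rspo1 and Wisp2 lower under the KO label on all 4 days, while Wnt9a overlaps between the labels on each day.

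Over time, 38, 39 and 43 of the 69 other genes changed in WT on days 1, 3 and 6, and 42, 48 and 51 under the KO label, beside the same backgrounds as above. Wisp2 rose by day 6 under both labels, by 5.25 in log2FC in WT (1.46 ± 0.362 to 55.9 ± 10.7 CPM, SD, n = 2 and 3, adjusted p = 1.49e-14, edgeR) and by 4.82 under the KO label (0.276 ± 0.0889 to 7.98 ± 0.599 CPM, SD, n = 3 each, adjusted p = 1.32e-12, edgeR). Daam2, a formin of the planar polarity branch, rose by 3.36 in WT and 4.74 under the KO label (adjusted p of 4.4e-12 and 2.99e-15). Wnt7b rose by 3.62 in WT and 2.16 under the KO label (adjusted p of 1.8e-12 and 2.3e-12), and Porcn by 2.40 and 2.61 (adjusted p of 1.12e-12 and 3.04e-14). Ccnd1, which encodes the cell-cycle protein cyclin D1, fell by 1.81 in WT and 2.83 under the KO label (adjusted p of 8.77e-13 and 6.8e-17). Lgr6, a receptor for R-spondins, fell by 1.25 in WT and 0.50 under the KO label (adjusted p of 5.24e-08 and 0.000976), and Fzd6 fell by 1.01 and 0.95 (adjusted p of 1.67e-09 and 6.27e-10). Cd44, a cell-surface receptor and target gene, fell by 0.49 in WT and 1.22 under the KO label (adjusted p of 2.07e-06 and 7.16e-14). Rspo1 fell by 1.99 under the KO label (adjusted p = 4.59e-10). Its WT value of -0.44 (adjusted p = 0.0141) was lost without WT day 0 library 1 (0.108) or WT day 6 library 1 (0.0946) or 3 (0.0606), and on log2(TPM + 1) or log2(TPM + 0.1) values (0.141 and 0.187).

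The change since growth medium differed between the labels (interaction test, edgeR) for 4, 10 and 18 of the 69 on days 1, 3 and 6, where 3.95%, 10.7% and 13.0% of all genes tested were called. The day 3 count was 5 without WT day 0 library 2 and 16 without KO day 1 library 2, and the day 1 count was 0 without KO day 0 library 2, WT day 0 library 1 or WT day 0 library 2 (edgeR, with 13, 13 and 8 at an unadjusted p under 0.05, and 7 by DESeq2 with all libraries).

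The genes most like 3 of the members across the 8 group means of log2 CPM were found among 11160 or 11161 genes with at least 5 CPM in one group. For Axin2 they were Wnt9a (Pearson r 0.992), Zfp607b (0.992) and Myh3 (0.990). Wnt9a, a ligand, went from 4.81 to 20.4 CPM in WT and from 4.69 to 21.97 CPM under the KO label between days 0 and 6. Myh3, the embryonic myosin heavy chain of new myotubes, went from 0.0440 to 141 CPM and from 0.0467 to 411 CPM. For Sfrp1 they were Brd7 (0.993), Cox6b1 (0.992) and Nlrc5 (0.985), and their ranges differ much: Brd7 group means ran only from 107 to 155 CPM. For Wnt5a they were Ripk3 (0.992), Unc5c (0.990) and Bnc1 (0.988), each with at most 11 counts in any library labelled KO. With 8 points that share libraries and a split by label, such a correlation is a description.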

How the data were processed

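The authors deposited 2 tables of 32793 gene symbols by 23 libraries. One holds estimated counts per gene, deposited as whole numbers, so rounding changed 0 values. The other holds TPM, which the authors scaled for transcript length and depth. Bowtie2, RSEM and the build mm10 are named in the submitters' processing notes, without versions. The use of strand is not given in the sources used here.

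Counts were tested in edgeR 4.0.16 (R 4.3.3) by its quasi-likelihood F-test, after filterByExpr (minimum count 10, minimum total 15) and TMM scaling, in 1 model of 8 group means over all 23 libraries. Each contrast had its p-values adjusted (Benjamini-Hochberg, 14187 genes), with a threshold of 0.05. The script was tested on simulated data. Standard errors come from the F statistic, and CPM are counts scaled to the TMM-adjusted library size. Floors and counting intervals cover counting error only, since molecular identifiers were not used.

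Alternatives were DESeq2 1.42.0, other scalings, no filter, limma 3.58.1 on log2(TPM + 1) or on log2(TPM + 0.1), fits on the groups compared, a replicate block, and each library left out.

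The members and lists were chosen with earlier results of these data known. Beside the members, the text names up to 3 listed pathway genes per direction in each genotype contrast and each contrast of day 6 with day 0. They are those of largest log2FC among genes that passed the threshold, changed by 1 or more in log2FC and reached 5 CPM in the higher group. It also names the 3 genes most like Sfrp1, Wnt5a and Axin2. Sequences and positions are from RefSeq (GRCm38.p6), with exons from GENCODE. The protein sequences of the members were not analysed here.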

Additional observations from a re-analysis of the deposited data

Results flagged for a closer look

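Some genes changed differently with time under the 2 labels. Each value below is the log2 change since growth medium in the libraries labelled KO minus that in WT.

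Sfrp1 stood out because every WT library of days 3 and 6 was below the WT day 0 libraries and every library labelled KO of those days was above those of day 0 with the same label. The difference was 1.51 on day 3 and 1.79 on day 6, and it was not tested, since it is built from the contrast by which Sfrp1 was chosen.

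The others are listed pathway genes for which edgeR's interaction test passed. Among secreted proteins, Wnt7b gave -1.25 on day 3 (adjusted p = 0.00379) and -1.47 on day 6 (adjusted p = 0.000592), so its rise on the log2 scale was smaller under the KO label. In mean CPM it went from 1.44 to 17.9 in WT and from 10.7 to 47.9 under the KO label between days 0 and 6. Wnt10a gave 0.77 on day 6 (adjusted p = 0.0241). Rspo1 gave -1.55 on day 6 (adjusted p = 5.12e-05). In the planar polarity branch, Prickle1 gave 0.73 on day 3 (adjusted p = 0.0123) and 1.14 on day 6 (adjusted p = 0.000115). Daam2 gave 1.31, 1.54 and 1.39 on days 1, 3 and 6 (adjusted p of 0.0343, 0.00441 and 0.00843). Its level was called lower under the KO label on day 0, from 8 to 18 counts per library (log2FC -1.23, adjusted p = 0.00877), a call lost without KO day 0 library 2 (0.0504) or WT day 0 library 1 (0.0983) and on log2(TPM + 1) values (0.056). Between the labels it did not pass on days 1, 3 and 6 (0.09, 0.31 and 0.16, adjusted p of 0.65, 0.066 and 0.377), though day 3 did with only the groups compared (0.0131). Of target genes and receptors, Ccnd1 gave -0.67 on day 3 (adjusted p = 0.00291) and -1.02 on day 6 (adjusted p = 2.23e-05), a deeper decrease under the KO label. Cd44 gave -0.34 on day 1 (adjusted p = 0.0469) and -0.73 on day 6 (adjusted p = 9.6e-06). Lgr6 gave 0.77 on day 1 (adjusted p = 0.0211) and 0.75 on day 6 (adjusted p = 0.00836).

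Several of these calls were not stable. On day 1 those of Daam2, Lgr6 and Cd44 were lost under 8, 8 and 21 of 31 alternatives, with adjusted p of up to 0.186, 0.129 and 0.204. All 3 were lost with only the groups compared (0.0831, 0.122 and 0.0919), without KO day 0 library 2 (0.13, 0.0661 and 0.114), without WT day 0 library 1 (0.186, 0.129 and 0.171) and without WT day 0 library 2 (0.114, 0.0641 and 0.152). Daam2 was also lost without KO day 0 library 3, KO day 1 library 2 or WT day 1 library 2 (0.0629 to 0.0695), and Lgr6 without KO day 0 library 1 or WT day 1 library 3 (0.055 and 0.0615). For Cd44 the adjusted p ran from 0.00138 to 0.204 over the 31 alternatives. Leaving out some other single libraries, from each of the days, also ended its call (0.0535 to 0.0894), as did the replicate block (0.0724). Without WT day 0 library 1, Daam2 on days 3 and 6 and Lgr6 on day 6 did not pass either (0.053, 0.0772 and 0.073). Wnt10a on day 6 was lost without KO day 0 library 1, either WT day 0 library, KO day 6 library 1, or WT day 6 library 1 or 3 (0.0504 to 0.0898). Prickle1 on day 3 was lost without KO day 0 library 1 (0.0684) or WT day 0 library 2 (0.0839). On log2(TPM + 1) values 7 of the calls above were lost: Wnt7b on day 3 (0.172), Wnt10a on day 6 (0.0845), Prickle1 on day 3 (0.0705), Daam2 on days 1 and 6 (0.179 and 0.368), and Lgr6 and Cd44 on day 1 (0.0656 and 0.193). On log2(TPM + 0.1) values Prickle1 on day 3 (0.0558) and Lgr6 and Cd44 on day 1 (0.0696 and 0.204) were lost, and Cd44 on day 1 also with library size only (0.0779) and no filter (0.0919).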

How the results depend on the processing

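Among the single values followed (members, the pathway genes chosen for naming, Wls and the interactions that passed), no called change reversed, but some values that were not called changed sign, such as Axin2 between the labels on day 0 (log2FC of -0.47 to 0.38) and Wnt4 in WT on day 6 against growth medium (-0.17 to 0.29). Of 2773 tests of single members over time under the alternatives, 2720 stayed on their side of the threshold, 31 newly passed and 22 no longer passed. For the contrasts by which pathway genes were chosen for naming, 868 tests stayed on their side and 0 did not. The genes were picked in those contrasts as called and of largest log2FC, so this count is no measure of stability. For the other contrasts of these genes and for Wls between the labels and on day 6 against growth medium, 1471 stayed, 1 newly passed and 78 no longer passed. For the interactions of pathway genes that passed with all libraries, 890 stayed and 102 no longer passed. Other tests of pathway genes were followed only as counts. The count of members changed from day 1 to day 3 under the KO label was 5, and 3 with log2(TPM + 0.1) or with only the groups compared. The count of other pathway genes between the labels on day 0 was 32, with a range of 19 to 38 when 1 library was left out, and 19 without WT day 0 library 1. On day 1 it was 36, and 23 with only the groups compared. Their count on day 1 against growth medium under the KO label was 42, and 26 with only the groups compared. Interactions on day 1 numbered 4 (background 3.95%), against 7 with DESeq2, 2 with log2(TPM + 1), 0 with only the groups compared (edgeR, 11 at an unadjusted p under 0.05) and a range of 0 to 6 when 1 library was left out. The count was 0 (edgeR) without KO day 0 library 2, WT day 0 library 1 or WT day 0 library 2, with 13, 13 and 8 at an unadjusted p under 0.05. Interactions on day 3 numbered 10 (background 10.7%), against 19 with only the groups compared and a range of 5 to 16 when 1 library was left out, 5 without WT day 0 library 2 and 16 without KO day 1 library 2. The RUNX match of 1 member became 0 in windows of 100 bases. The cause of these shifts was not tested. The values of members between the labels under DESeq2, without a filter and with only the groups compared were added after seeing the data. Of 1116 such values under all alternatives, 79 moved by more than the replicate SD on the log2 scale, of which 30 were on log2(TPM + 1), 18 on log2(TPM + 0.1) and 25 with 1 library left out. Equal replicate numbers did not pair the libraries (correlation of their deviations from the group means, -0.24 to 0.12). With the replicate number as a block, interactions on day 1 numbered 2, members changed on day 1 in WT 7 in place of 6 (Dkk2, 0.85, adjusted p = 0.0342), and members changed from day 1 to day 3 under the KO label 4 in place of 5. Counts under 3 per library limit Wnt5a, Nkd2, Nkd1 and early Dkk3 and Sfrp2.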

Other observations

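Across the 69 other pathway genes tested, the change by day 6 differed between the labels for 18 (7 higher and 11 lower under the KO label), against 13.0% of all genes tested. The genes that follow were chosen after their values were seen. For the ligands Wnt11 and Wnt10b and the nuclear gene Tcf7 the change since growth medium was lower under the KO label on days 3 and 6. Wnt11 gave -1.63 on day 3 (adjusted p = 6.49e-05) and -1.0003 on day 6 (adjusted p = 0.0049), while its level on day 6 did not pass between the labels (log2FC -0.19, adjusted p = 0.267). Wnt10b gave -0.74 and -0.71 (adjusted p = 0.0049 and 0.00591), and Tcf7, a partner of β-catenin related to Lef1, gave -0.80 (adjusted p = 0.000996) and -0.66 (adjusted p = 0.00464) in log2 change. Wisp1 (now Ccn4), a target gene, gave -0.64 (adjusted p = 0.0111) and -0.90 (adjusted p = 0.000413). Rspo3, like Rspo1 an enhancer of Wnt signalling, went the other way from Rspo1 on day 6, at 2.22 (SE 0.53, adjusted p = 0.0058). Without WT day 0 library 2, Wnt10b on days 3 and 6 (adjusted p = 0.0837 and 0.0874), Tcf7 on day 6 (0.0572) and Wisp1 on day 3 (0.0656) did not pass. Tcf7 on day 6 did not pass on log2(TPM + 1) or log2(TPM + 0.1) values either (0.0601 and 0.0647). Except where the level is named, all of these are edgeR interaction tests with Benjamini-Hochberg adjustment over all genes.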
